A study of Homo sapiens with 6 samples.

Results

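Heat shock proteins and their DNAJ co-chaperones keep proteins folded. The 79 gene entries described here are every row of the deposited table whose name starts with HSPA, HSPB, DNAJA, DNAJB or DNAJC and a number, or is HSPH1, HSPD1, HSPE1, HSP90AA1, HSP90AB1 or HSP90B1. Names that end like pseudogenes and antisense names were dropped, which removed 41 names. The 79 entries carry 78 names, because HSPA14 is listed under 2 Ensembl IDs, and they come from a table of 60027 entries. Polyadenylated RNA was sequenced from 3 libraries of NCI-H292 cells with a knockdown of the long noncoding RNA SH3PXD2A-AS1 and from 3 libraries of negative control cells. NCI-H292 is an established human cell line that was derived from a lung mucoepidermoid carcinoma. Both groups are the same line and differ, as far as the labels say, only in the knockdown; the series text calls the control a vector control. The knockdown reagent, its delivery and the number of clones or cultures behind a group are not stated in the labels.

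The HSP70 proteins bind exposed hydrophobic stretches of unfolded clients and release them in a cycle driven by ATP. DNAJ proteins bring clients to HSP70 and start ATP hydrolysis through their J domain, and HSP110 and other exchange factors reset the cycle. HSP90 acts later on kinases, receptors and other near-native clients, small heat shock proteins hold aggregating clients without ATP, and the endoplasmic reticulum (ER) and mitochondria have HSP70, HSP90 or chaperonin forms of their own. Heat and other proteotoxic stress induce many of these genes through the transcription factor HSF1, while stress in the ER lumen induces the ER forms through other factors. Cancer cells commonly carry high levels of these chaperones.

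Few chaperone genes differed between the groups. HSPA8, HSPA6, HSP90AB1 and HSPD1 were lower in knockdown libraries, and DNAJC6, DNAJB11, DNAJA1 and DNAJC25 were higher. Of 62 members with a mean of at least 1 TPM (a transcript level corrected for gene length and scaled to the same total in every library), 4 rose (6.45%) and 4 fell (6.45%) at a Benjamini-Hochberg adjusted p under 0.05 in limma. Of all 15755 genes tested, 11.3% were called higher and 3.47% lower. The members' share of rises was thus below that of all genes and their share of falls above it. All 4 members that fell are among 23 tested heat shock proteins (17.4% lower, 0 higher), and all 4 that rose are among 39 tested DNAJ genes (10.3% higher, 0 lower). The DNAJ share of rises was thus close to that of all genes. The split depended on scaling: after median ratio scaling 2 members rose (3.23%) and 8 fell (12.9%), against 6.42% and 6.32% of all genes. The rises that remained after this scaling were DNAJC6 and DNAJB11, and all 4 falls remained. The 8 falls were then 7 heat shock proteins and 1 DNAJ gene, DNAJA4.

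Most members changed little. HSPA6 was the 1 member of 62 whose log2 fold change reached a 1.5-fold size. The median log2 fold change, knockdown minus negative control on the log2(TPM + 1) scale, was 0.03 over the members and 0.08 over all genes tested. An unadjusted limma p under 0.05 was reached by 8 members with higher and 8 with lower levels (12.9% each), against 22.7% and 7.67% of all genes tested. In 9 members (14.5%) every knockdown library lay above every negative control library, against 26.8% of all genes tested, and in 10 members (16.1%) every knockdown library lay below, against 9.66% of all genes. The labels do not tell separate cultures from repeat libraries, so every p-value here reflects the spread among 3 libraries per group, and that spread may be purely technical. A lower level in bulk RNA can come from fewer cells that make a message or from less message per cell, and these cannot be told apart here.

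**Figure D1:**
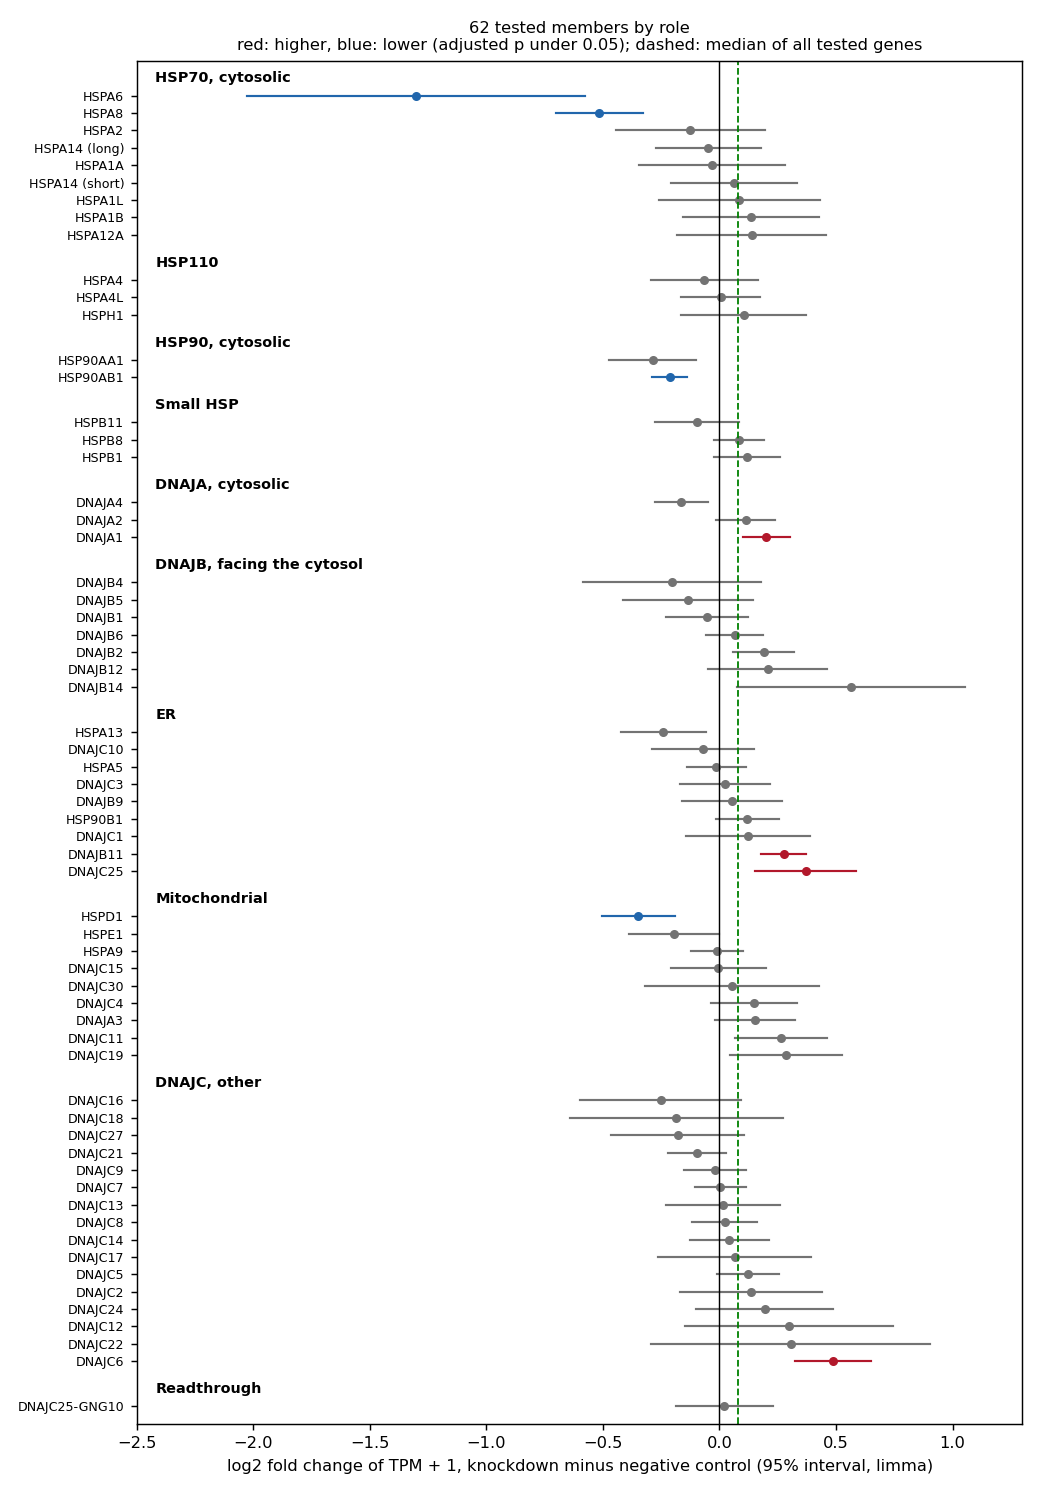
Log2 fold change of TPM + 1, knockdown minus negative control, for the 62 tested members, grouped by role, with 95% intervals from limma; red marks members called higher, blue members called lower, and the dashed line is the median of all genes tested (0.08). HSPA6 lies farthest from 0 and has the widest interval, and the called rises are all DNAJ genes.

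The targeted RNA did not separate the groups. SH3PXD2A-AS1 stood at 0.37, 0.68 and 0.44 TPM in knockdown libraries 1 to 3, against 0.96, 0.75 and 0.51 TPM in negative control libraries 1 to 3, with knockdown library 2 above negative control library 3 (exact two-sided permutation p = 0.2, where 0.1 is the smallest possible). Epithelial keratin, EPCAM and CDH1 messages, which mark the epithelial origin of the line, were abundant in every library. They summed to 3602 to 3690 TPM in knockdown and 3221 to 3320 TPM in negative control libraries. All 6 of 6 were tested and 4 of 6 were called higher, against 11.3% of all genes. Leukocyte markers summed to 57.4 to 62.2 TPM in knockdown and 38.1 to 43.7 TPM in negative control libraries, almost all of it CD68, with PTPRC at 0 in all. Fibroblast markers summed to 23.2 to 27.0 TPM in knockdown and 19.95 to 22.65 TPM in negative control libraries, with COL1A1 the 1 of 6 above a mean of 1 TPM and LUM at 0 in all. Endothelial markers summed to at most 2.24 TPM in any library. The part of these marker differences in the chaperone results was not tested.

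The members took up 0.762%, 0.837% and 0.796% of all TPM in knockdown libraries 1 to 3 and 0.864%, 0.856% and 0.816% in negative control libraries 1 to 3. These shares overlapped, since knockdown library 2 lay above negative control library 3. The ER forms HSPA5 and HSP90B1, the cytosolic HSP90AB1 and HSPA8, and the small heat shock protein HSPB1 held 53.5% of the members' summed mean TPM. Their means over the 6 libraries were 1026 TPM for HSPA5, 976 for HSP90B1, 936 for HSP90AB1, 754 for HSPA8 and 707 for HSPB1. Of the 62 tested members, 16 averaged at least 100 TPM, 33 lay from 10 to 100 TPM and 13 from 1 to 10 TPM. The other 17 entries stayed under a mean of 1 TPM and were not tested, with no library above 0.8 TPM. They are the DNAJ entries DNAJB7, DNAJB8, DNAJB13, DNAJC5B, DNAJC5G and DNAJC28, the HSP70 entries HSPA7 and HSPA12B, the small heat shock proteins HSPB2, HSPB6, HSPB7 and HSPB9, the transcripts DNAJC3-DT and HSPB2-C11orf52, and DNAJB3, DNAJB5-DT and HSPB3, listed at 0 in all 6 libraries.

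**Figure D2:**
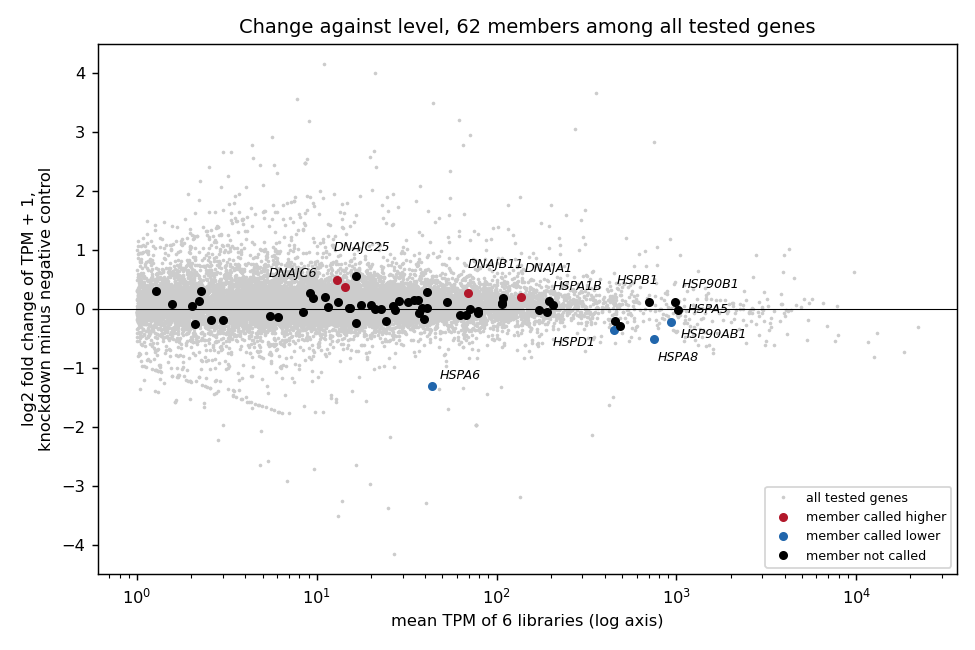
Log2 fold change of TPM + 1, knockdown minus negative control, against the mean TPM of the 6 libraries on a log axis, with all 15755 tested genes in grey and the 62 tested members in colour or black. The members lie mostly near 0, with HSPA8, HSP90AB1 and HSPD1 low among the abundant members and HSPA6 apart at a middle level.

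HSF1 binds inverted repeats of nGAAn, and 3 such units in a row make the classic heat shock element. The 13-base form GAANNTTCNNGAA, or its other strand TTCNNGAANNTTC, was searched in RefSeq promoters of GRCh38.p14 that run from 250 bases before to 50 bases after a listed start. It occurred in 0.49% of 35116 promoters and in 7 of 86 listed promoters (8.14%) of the 67 member names that matched. The 7 genes are HSPA8, HSPA6, HSP90AB1, HSP90AA1, HSPD1, DNAJA1 and DNAJB6. They include all 4 members that fell, and DNAJA1 of the 4 that rose. The shorter form with 2 units, GAANNTTC or TTCNNGAA, which lies inside the longer one, occurred in 26.7% of the member promoters and 13.5% of all. A match describes letters in these windows and is not evidence of binding. The sites are shown because each of the 4 members that fell holds at least 1 of them. Those of HSP90AA1, which was not called, and of DNAJA1, which rose, are added. The DNAJB6 match, at −131 to −119 from the start, is not printed, and DNAJB6 was not called. Whether these sites or HSF1 had a part in any of the changes was not tested. Each line gives 30 bases, 5′ to 3′ along the gene, with the 13-base match in capitals.

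HSPA8 upstream match, GRCh38.p14 chr11:123062345-123062374, minus strand: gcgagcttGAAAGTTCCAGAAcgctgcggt
HSPA8 match nearer the start, chr11:123062170-123062199, minus strand: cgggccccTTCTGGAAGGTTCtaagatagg
HSP90AB1 upstream match, chr6:44247770-44247799, plus strand: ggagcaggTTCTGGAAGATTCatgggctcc
HSP90AB1 match nearer the start, chr6:44247823-44247852, plus strand: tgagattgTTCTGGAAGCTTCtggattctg
HSP90AA1, chr14:102087111-102087140, minus strand: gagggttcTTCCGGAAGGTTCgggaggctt
HSPD1, the first of an overlapping pair, chr2:197500061-197500090, minus strand: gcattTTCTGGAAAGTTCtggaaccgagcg
DNAJA1, chr9:33025268-33025297, plus strand: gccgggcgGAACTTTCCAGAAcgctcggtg

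Counting the listed start as 1 and the base before it as −1, the HSPA8 matches lie at −230 to −218 and −55 to −43. The HSP90AB1 matches lie at −165 to −153 and −112 to −100, and the HSP90AA1 match at −88 to −76. In DNAJA1 the match lies just inside the transcript, at 4 to 16. HSPD1 shares its promoter region with HSPE1, which runs the other way, and its overlapping pair lies at −245 to −228.

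HSPA6 encodes an HSP70 that human cells make almost only under stress, and its whole window before the start is shown because it had the largest log2 fold change of any member tested. Capitals mark the short form; where 2 copies overlap near the end they make the 13-base form, at −74 to −62.

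HSPA6, chr1:161524290-161524539, plus strand: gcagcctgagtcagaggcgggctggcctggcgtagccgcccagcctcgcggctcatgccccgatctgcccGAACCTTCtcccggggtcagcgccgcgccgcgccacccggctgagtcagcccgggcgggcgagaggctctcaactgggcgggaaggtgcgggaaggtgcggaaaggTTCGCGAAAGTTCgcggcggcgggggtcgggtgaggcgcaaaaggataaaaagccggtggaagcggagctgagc

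Among cytosolic HSP70 genes, the constitutive HSPA8 and the stress-induced HSPA6 fell, while the inducible pair HSPA1A and HSPA1B did not pass the test. In all, 0 of 9 tested members of this group rose and 2 fell (22.2%), against 11.3% and 3.47% of all genes. HSPA8 encodes HSC70, which also strips clathrin from vesicles and delivers proteins to lysosomes. It stood at 579.83, 670.70 and 611.48 TPM in knockdown libraries 1 to 3, against 957.26, 897.45 and 808.51 TPM in negative control libraries 1 to 3. Every knockdown library lay well below every negative control library. The knockdown mean was 69.9% of the control mean, and the log2 fold change was −0.51 (SE 0.08, limma adjusted p = 0.00781). HSPA8 (ENSG00000109971, chr11:123057489-123063230, minus strand, GENCODE 29 on GRCh38) shares exon bases with small nucleolar RNA genes of its introns in the annotation. No 150-base window of its longest annotated transcript occurs in a transcript of another gene.

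HSPA6 stood at 27.30, 28.75 and 17.28 TPM in knockdown libraries, against 84.19, 66.97 and 38.88 TPM in negative control libraries. The groups did not overlap, but the control libraries spread widely, and library 3 was the lowest of each group. The means were 24.4 ± 6.25 TPM in knockdown and 63.3 ± 22.9 TPM in negative control libraries (SD, n = 3 each), and the log2 fold change was large and uncertain (−1.30, SE 0.31, limma adjusted p = 0.0342). The call was lost with no filter on low values (limma adjusted p = 0.095), with no trend in the prior spread (limma adjusted p = 0.0585) and when any 1 library other than negative control library 3 was left out (limma adjusted p = 0.0721 to 0.109). In annotated transcripts, 15.2% of the 150-base windows of HSPA6 (ENSG00000173110, chr1:161524540-161526910, plus strand) also occur in its near copy HSPA7, so reads could be divided between them. HSPA7 itself averaged 0.160 ± 0.125 TPM in knockdown and 0.5 ± 0.223 TPM in negative control libraries.

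HSPA1A and HSPA1B encode nearly the same HSP70 protein, and 67.1% and 70.0% of their 150-base windows are shared, so the deposited division between them is uncertain. HSPA1A stood at 79.41, 82.66 and 70.41 TPM in knockdown libraries, against 93.32, 81.46 and 65.01 TPM in negative control libraries (limma adjusted p = 0.9). HSPA1B stood at 217.06, 224.85 and 173.26 TPM in knockdown libraries, against 209.24, 185.17 and 164.42 TPM in negative control libraries (limma adjusted p = 0.506). Both genes overlapped between the groups. Their sum was 283 ± 34.1 TPM in knockdown and 266 ± 36.6 TPM in negative control libraries (SD, n = 3 each; exact two-sided permutation p = 0.6).

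The promoters of HSPA1A and HSPA1B are shown up to the first annotated exon to set the near copies beside HSPA6 and HSPA8. Within these windows each holds the short form once, in capitals, and neither holds an exact match to the 13-base form. The search took exact letters only. In both promoters the stretch that begins with the short form misses the 13-base form at its last letter alone.

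HSPA1A, chr6:31815293-31815463, plus strand: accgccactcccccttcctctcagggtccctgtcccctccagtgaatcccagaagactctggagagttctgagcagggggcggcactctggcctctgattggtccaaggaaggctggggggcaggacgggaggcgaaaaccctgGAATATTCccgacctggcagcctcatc
HSPA1B, chr6:31827488-31827734, plus strand: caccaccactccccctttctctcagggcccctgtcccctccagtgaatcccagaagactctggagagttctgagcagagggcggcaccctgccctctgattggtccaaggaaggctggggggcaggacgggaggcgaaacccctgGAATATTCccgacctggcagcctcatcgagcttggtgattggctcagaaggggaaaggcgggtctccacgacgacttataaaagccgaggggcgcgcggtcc

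A ratio within a library does not depend on how libraries are scaled. The ratio of HSPA1A plus HSPA1B to HSPA8, inducible over constitutive HSP70, was 0.511, 0.458 and 0.398 in knockdown libraries, against 0.316, 0.297 and 0.284 in negative control libraries. All 3 knockdown ratios lay above all 3 control ratios (difference of log2 ratios 0.60, exact two-sided permutation p = 0.1, the smallest this design allows, and 0.15 adjusted over 3 ratios). The remaining cytosolic HSP70 entries, HSPA2, HSPA12A, HSPA1L and both HSPA14 entries, overlapped between the groups. Against 11.3% of all genes called higher and 3.47% lower, the HSP110 exchange factors HSPH1, HSPA4 and HSPA4L gave 0 calls of 3. HSPH1, the most abundant of them, stood at 98.74, 130.75 and 105.43 TPM in knockdown libraries, against 107.06, 109.05 and 93.84 TPM in negative control libraries (limma adjusted p = 0.582).

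**Figure D3:**
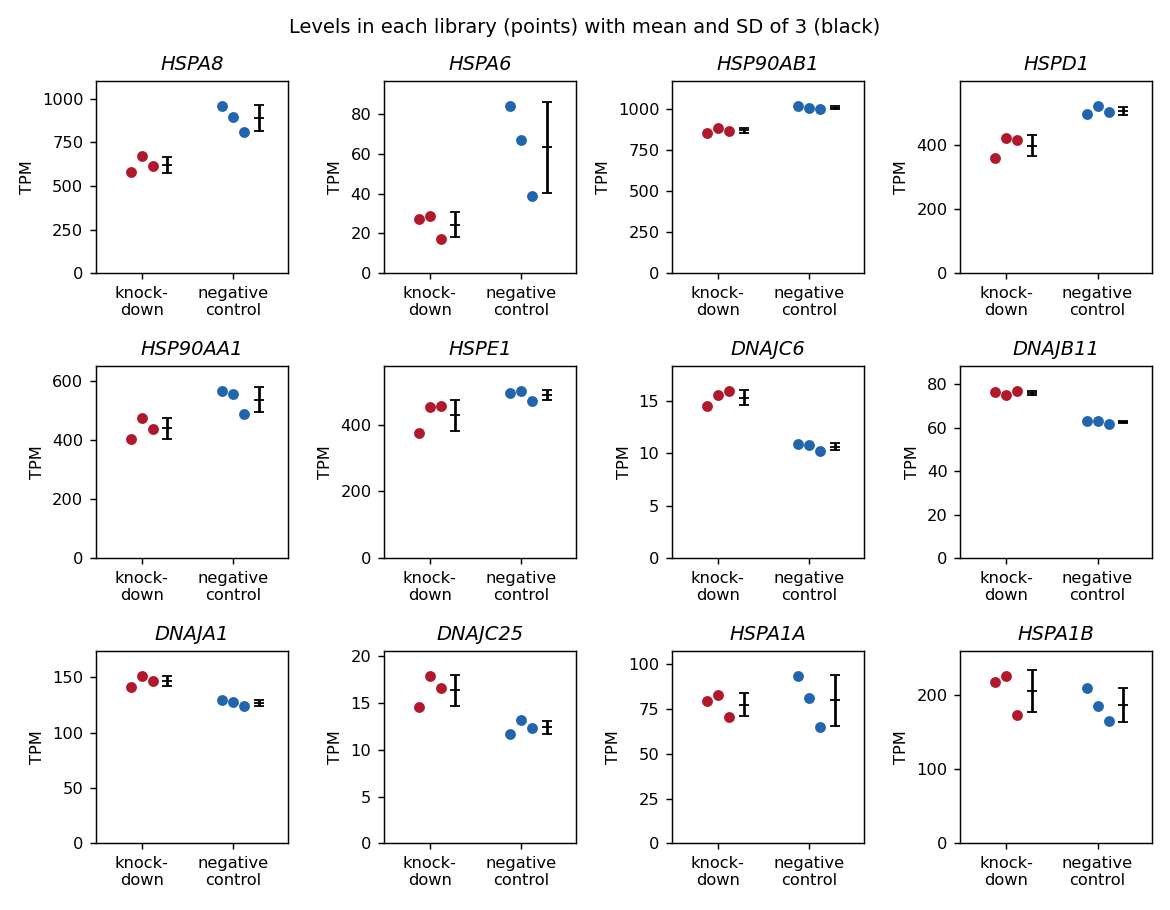
TPM in each library for 12 members, knockdown in red and negative control in blue, with libraries 1 to 3 left to right and the mean and SD of 3 in black; each axis starts at 0. HSPA8, HSPA6, HSP90AB1, HSPD1, HSP90AA1 and HSPE1 are lower in every knockdown library, DNAJC6, DNAJB11, DNAJA1 and DNAJC25 are higher, and HSPA1A and HSPA1B overlap.

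Both cytosolic HSP90 genes were lower in every knockdown library, and HSP90AB1, the constitutive form, passed the test. HSP90AB1 stood at 853.95, 880.37 and 866.54 TPM in knockdown libraries, against 1014.97, 1000.72 and 1000.14 TPM in negative control libraries. Libraries within a group differed little, so that a small difference stood clear of the spread. The log2 fold change was −0.21 (SE 0.03, limma adjusted p = 0.00737), with a knockdown mean at 86.2% of control. The gene (ENSG00000096384) lies at chr6:44246166-44253888 on the plus strand. Its call was lost with no trend in the prior spread (limma adjusted p = 0.0542).

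HSP90AA1, the more stress-responsive form (ENSG00000080824, chr14:102080738-102139699, minus strand), stood at 404.23, 473.52 and 436.94 TPM in knockdown libraries, against 564.08, 553.40 and 486.33 TPM in negative control libraries. The groups did not overlap, yet the gene missed the threshold (log2 fold change −0.29, SE 0.08, limma adjusted p = 0.0549) and passed it after median ratio scaling (limma adjusted p = 0.0207). The ratio of HSP90AA1 to HSP90AB1 was 0.505 ± 0.0323 in knockdown and 0.532 ± 0.0394 in negative control libraries (SD, n = 3 each; exact two-sided permutation p = 0.5, and 0.5 adjusted over 3 ratios). Among members with HSPB names, 0 of 3 tested were called, against 11.3% of all genes called higher and 3.47% lower. HSPB1, known as HSP27, stood at 769.33, 763.08 and 677.10 TPM in knockdown libraries, against 704.65, 661.30 and 667.35 TPM in negative control libraries (limma adjusted p = 0.232). The HSPB1 groups overlapped, because knockdown library 3 lay below negative control library 1.

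In mitochondria the chaperonin HSPD1 fell, while the mitochondrial HSP70 gene HSPA9 did not pass the test. HSPD1, or HSP60, forms the folding chamber of the matrix. It stood at 358.64, 420.15 and 413.81 TPM in knockdown libraries, against 494.29, 520.29 and 501.57 TPM in negative control libraries. The groups were clearly apart, with knockdown library 1 the lowest of all (log2 fold change −0.35, SE 0.07, limma adjusted p = 0.017). The call was lost without negative control library 1, 2 or 3 (limma adjusted p = 0.0531, 0.066 and 0.0632).

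HSPE1, or HSP10, is the lid of that chamber. It stood at 373.61, 453.37 and 456.37 TPM in knockdown libraries, against 495.44, 499.82 and 469.96 TPM in negative control libraries. Every knockdown library lay below every control library by a narrow margin, and the gene did not pass the test (log2 fold change −0.20, SE 0.08, limma adjusted p = 0.16). Median ratio scaling was the 1 of 15 alternatives that called it (limma adjusted p = 0.0493). Quantile normalization and rescaling without mitochondrial DNA and ribosomal protein genes did not (limma adjusted p = 0.0757 and 0.0777). HSPD1 (chr2:197486581-197516737, minus strand) and HSPE1 (chr2:197499994-197503457, plus strand) are neighbours whose annotated exons overlap by 281 bases on opposite strands, and whether counting kept strand is not stated. The ratio of HSPD1 to HSPE1 was 0.960, 0.927 and 0.907 in knockdown libraries, against 0.998, 1.04 and 1.07 in negative control libraries. All 3 knockdown ratios were lower (difference of log2 ratios −0.15, exact two-sided permutation p = 0.1, and 0.15 adjusted over 3 ratios).

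HSPA9, which imports and folds matrix proteins, stood at 172.71, 177.21 and 165.85 TPM in knockdown libraries, against 165.83, 175.72 and 178.18 TPM in negative control libraries (limma adjusted p = 0.906). The groups overlapped fully. Of the 9 tested mitochondrial members 1 fell (11.1%) and 0 rose, against 3.47% and 11.3% of all genes. The J proteins of mitochondria include DNAJC19, which is linked to the import motor, and DNAJC11 of the cristae machinery. Both, chosen after their values were seen, lay higher in every knockdown library without passing the test (limma adjusted p = 0.108 and 0.0817). They were the 2 of 9 tested mitochondrial members (22.2%) that did so, against 26.8% of all genes tested. In 2 of 9 (22.2%) every knockdown library lay below, against 9.66% of all genes.

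**Figure D4:**
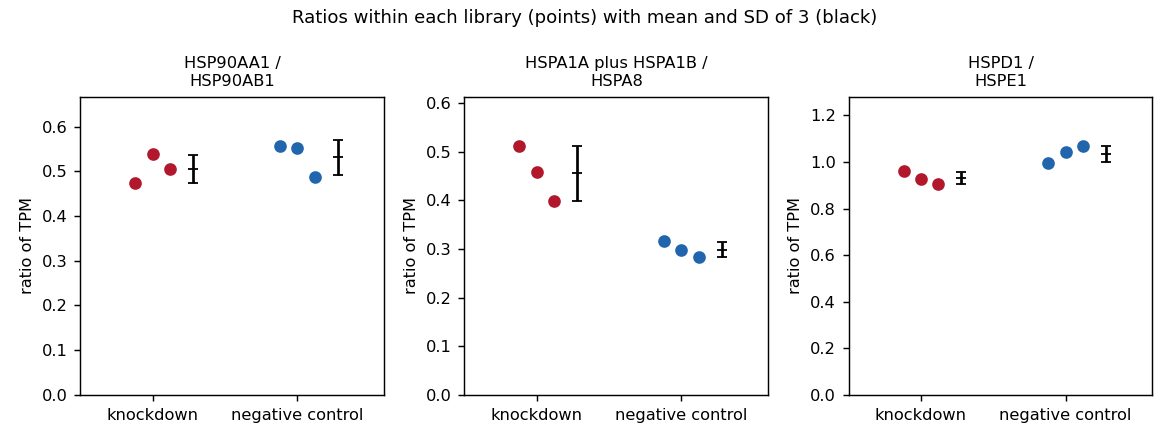
Ratios of TPM within each library for 3 chaperone pairs, knockdown in red and negative control in blue, with the mean and SD of 3 in black and axes from 0. The ratio of HSPA1A plus HSPA1B to HSPA8 is higher and that of HSPD1 to HSPE1 lower in all 3 knockdown libraries, while the HSP90AA1 to HSP90AB1 ratio overlaps.

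In the ER, the abundant chaperones HSPA5 and HSP90B1 did not pass the test, while DNAJB11 and DNAJC25 rose. HSPA5, or BiP, is the ER HSP70. It stood at 943.63, 1074.12 and 1046.95 TPM in knockdown libraries, against 1029.07, 1039.32 and 1021.64 TPM in negative control libraries (log2 fold change −0.01, SE 0.05, limma adjusted p = 0.888). HSP90B1, the ER form GRP94, stood at 939.67, 1066.53 and 1043.67 TPM in knockdown libraries, against 926.93, 972.36 and 904.81 TPM in negative control libraries (limma adjusted p = 0.215). Both overlapped between groups.

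The ER stress element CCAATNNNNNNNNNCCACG was searched on both strands of the same promoters, and it occurred in 0.0769% of them. HSPA5 and HSP90B1 were the 2 member names that held it. They are shown, with the element in capitals, because none of the cytosolic genes printed above held it in these windows.

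HSPA5, chr9:125241344-125241593, minus strand: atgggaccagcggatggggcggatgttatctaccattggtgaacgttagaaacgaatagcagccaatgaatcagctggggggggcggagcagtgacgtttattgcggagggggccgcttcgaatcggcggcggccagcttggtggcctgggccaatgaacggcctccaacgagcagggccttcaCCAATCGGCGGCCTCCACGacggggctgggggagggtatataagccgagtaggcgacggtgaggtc
HSP90B1 upstream match, chr12:103930211-103930240, plus strand: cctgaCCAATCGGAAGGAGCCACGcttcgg
HSP90B1 match nearer the start, on the other strand of the element, chr12:103930316-103930345, plus strand: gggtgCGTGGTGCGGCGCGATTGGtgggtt

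DNAJB11, or ERdj3, delivers unfolded proteins to HSPA5. It stood at 76.30, 75.05 and 76.86 TPM in knockdown libraries, against 63.12, 63.00 and 61.97 TPM in negative control libraries. The groups were far apart and the libraries within each close together (log2 fold change 0.27, SE 0.04, limma adjusted p = 0.00748). DNAJB11 (ENSG00000090520, chr3:186567403-186585800, plus strand) overlaps exons of AC068631.2 on its own strand and of TBCCD1 and AC068631.1 on the other, so its value may hold reads of these genes.

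DNAJC25, a J protein predicted to span a membrane and listed here with the ER forms, stood at 14.54, 17.81 and 16.59 TPM in knockdown libraries, against 11.69, 13.13 and 12.29 TPM in negative control libraries. The groups did not overlap (log2 fold change 0.37, SE 0.09, limma adjusted p = 0.04). The call was lost under 10 of 15 alternatives, among them median ratio scaling (limma adjusted p = 0.072) and leaving out any 1 library other than knockdown library 1 (limma adjusted p = 0.0776 to 0.12). DNAJC25 (chr9:111631352-111654351, plus strand) shares exons with the readthrough transcript DNAJC25-GNG10, so their reads are hard to separate. DNAJC25-GNG10 stood at 36.48, 44.66 and 42.49 TPM in knockdown libraries, against 43.25, 39.36 and 38.88 TPM in negative control libraries (limma adjusted p = 0.9). The sum of both entries overlapped between groups, at 57.5 ± 5.88 TPM in knockdown and 52.9 ± 1.91 TPM in negative control libraries (SD, n = 3 each; exact two-sided permutation p = 0.4). In the annotation the readthrough entry shares more exon bases with GNG10 than with DNAJC25, so this sum may hold GNG10 reads. The sum therefore cannot settle whether DNAJC25 itself differed. GNG10 was looked up after the values were seen. It stood at 36.8, 42.97 and 37.51 TPM in knockdown libraries, against 35.33, 46.73 and 36.64 TPM in negative control libraries (limma adjusted p = 0.968). Of 9 tested ER members, 2 rose (22.2%) and 0 fell, against 11.3% and 3.47% of all genes. After median ratio scaling 1 rose and 1 fell (11.1% each), against 6.42% and 6.32% of all genes. HSPA13, a truncated HSP70 of microsomes, chosen after its values were seen, stood at 14.60, 15.54 and 15.15 TPM in knockdown libraries, against 16.40, 19.03 and 18.71 TPM in negative control libraries (limma adjusted p = 0.0834, and 0.0295 after median ratio scaling).

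Of the cytosolic DNAJA genes 1 of 3 rose, against 11.3% of all genes. Of the DNAJB genes whose proteins face the cytosol 0 of 7 passed the test, with the ER-anchored DNAJB12 and DNAJB14 counted here. DNAJA1 is a farnesylated partner of HSPA8 that is also heat-inducible, and it moved opposite to HSPA8. It stood at 141.44, 150.78 and 146.79 TPM in knockdown libraries, against 129.14, 128.08 and 124.06 TPM in negative control libraries. The groups did not overlap (log2 fold change 0.20, SE 0.04, limma adjusted p = 0.0257). The DNAJA1 call was lost in 10 of 15 alternatives, with a limma adjusted p of 0.13 after median ratio scaling, and held without knockdown library 1 alone among the left-out libraries (limma adjusted p = 0.029, against 0.062 to 0.0891 without any other). DNAJA1 lies at chr9:33025211-33039907 on the plus strand. DNAJA4, named after its values were seen, stood at 36.91, 37.59 and 37.60 TPM in knockdown libraries, against 41.03, 43.11 and 41.75 TPM in negative control libraries (limma adjusted p = 0.066, and 0.0156 after median ratio scaling).

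DNAJB6, which keeps polyglutamine proteins from aggregating and is the most abundant of these DNAJB members, stood at 203.48, 216.42 and 209.51 TPM in knockdown libraries, against 188.91, 204.89 and 207.97 TPM in negative control libraries (limma adjusted p = 0.436). DNAJB1, the main heat-inducible HSP40, stood at 186.54, 193.57 and 183.65 TPM in knockdown libraries, against 211.73, 200.22 and 174.34 TPM in negative control libraries (limma adjusted p = 0.681). Both genes overlapped between the groups. DNAJB14, an ER-anchored J protein that faces the cytosol and was named after its values were seen, had the largest positive log2 fold change of the 62 members, 0.56. Its 3 knockdown libraries, at 24.69, 13.61 and 21.84 TPM, were too uneven to pass against 11.66, 12.84 and 14.15 TPM in negative control libraries (SE 0.21, limma adjusted p = 0.119).

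The DNAJC proteins with specialised roles gave 1 rise (6.25%) and 0 falls among 16 tested, against 11.3% and 3.47% of all genes. DNAJC6, or auxilin, recruits HSPA8 to clathrin coats and is best known from neurons. It stood at 14.49, 15.56 and 15.93 TPM in knockdown libraries, against 10.89, 10.82 and 10.23 TPM in negative control libraries. Every knockdown library stood well above every control library (log2 fold change 0.49, SE 0.07, limma adjusted p = 0.00619), with a knockdown mean at 144% of control. The gene (ENSG00000116675) lies at chr1:65248219-65415869 on the plus strand. DNAJC7, which binds both HSP70 and HSP90 and is the most abundant member of this group, stood at 68.55, 73.59 and 70.81 TPM in knockdown libraries, against 69.82, 70.72 and 71.68 TPM in negative control libraries (limma adjusted p = 0.962).

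A list of 15 members that heat is known to raise crosses the families above, and it includes HSPA8, which is made constitutively and raised further by heat. The others are HSPA1A, HSPA1B, HSPA6, HSPH1, HSPA4L, HSPB1, HSPB8, HSP90AA1, HSPD1, HSPE1, DNAJA1, DNAJA4, DNAJB1 and DNAJB4. The list held 3 falls (HSPA8, HSPA6 and HSPD1) and 1 rise (DNAJA1), with a median log2 fold change of −0.05 against 0.08 over all genes. Of all genes, 3.47% were called lower and 11.3% higher. After median ratio scaling the list held 6 falls and 0 rises, against 6.32% and 6.42% of all genes. Without HSPA8 it held 2 falls and 1 rise of 14, or 5 falls and 0 rises after median ratio scaling. Within each group, the same libraries were often at the top or bottom for these genes. Knockdown library 2 was the highest of its group for 12 of the 15 and knockdown library 1 the lowest for 10, against 37.5% and 43.3% of all genes tested. Negative control library 1 was the highest of its group for 9 of the 15 and library 3 the lowest for 11, against 32.6% and 32.0% of all genes tested. The members' median coefficient of variation within a group was 8.05% in knockdown and 5.88% in negative control libraries, against 8.73% and 8.20% over all genes tested.

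Partner genes of these chaperones were read from the same fit by list. The shares to set beside the counts are 11.3% of all genes called higher and 3.47% lower. Of 4 tested HSF entries, HSF1 was called higher, at 65.8 ± 2.50 TPM in knockdown and 54.4 ± 3.06 TPM in negative control libraries (SD, n = 3 each; log2 fold change 0.27, limma adjusted p = 0.0277, and 0.112 after median ratio scaling). HSF5 was listed at 0 in every library. Of 17 HSP90 co-chaperones 1 rose and 0 fell, namely TRAP1, in fact the HSP90 form of mitochondria, at 141 ± 4.09 TPM in knockdown and 122 ± 7.30 TPM in negative control libraries (limma adjusted p = 0.0491). Of 12 exchange and binding factors of HSP70, 1 rose and 0 fell. This was HYOU1, the ER form of HSP110, at 104 ± 0.773 TPM in knockdown and 86.2 ± 5.95 TPM in negative control libraries (limma adjusted p = 0.0245). Neither TRAP1 nor HYOU1 was called after median ratio scaling.

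The cytosolic chaperonin TRiC folds actin and tubulin, and prefoldin hands clients to it. Of 14 tested TRiC and prefoldin subunits 3 fell and 0 rose, with a median log2 fold change of −0.12, and 7 fell after median ratio scaling. Of all genes 3.47% were called lower, or 6.32% after that scaling. Every fall, with either scaling, was a TRiC subunit, and no prefoldin subunit was called. Log2 fold changes ran from −0.24 to −0.11 over the TRiC subunits and from −0.13 to 0.20 over the prefoldin subunits. CCT3 stood at 159 ± 1.96 TPM in knockdown and 187 ± 2.73 TPM in negative control libraries (limma adjusted p = 0.00854), and CCT7 at 213 ± 2.01 TPM in knockdown and 248.8 ± 8.49 TPM in negative control libraries (limma adjusted p = 0.0154). ER folding genes gave 8 rises and 0 falls of 17, with a median of 0.17 against 0.08 over all genes, of which 11.3% were called higher. After median ratio scaling they gave 3 rises and 0 falls, against 6.42% of all genes called higher. PDIA3, a disulfide isomerase for glycoproteins, stood at 559 ± 24.9 TPM in knockdown and 432 ± 8.02 TPM in negative control libraries (limma adjusted p = 0.00299). CRELD2, an ER stress target, stood at 16.8 ± 0.924 TPM in knockdown and 12.04 ± 0.774 TPM in negative control libraries (limma adjusted p = 0.0116). Of 11 mitochondrial protein quality genes, 1 rose, PAM16 of the import motor (limma adjusted p = 0.0351), and 0 fell, with 0 of either after median ratio scaling.

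**Figure D5:**
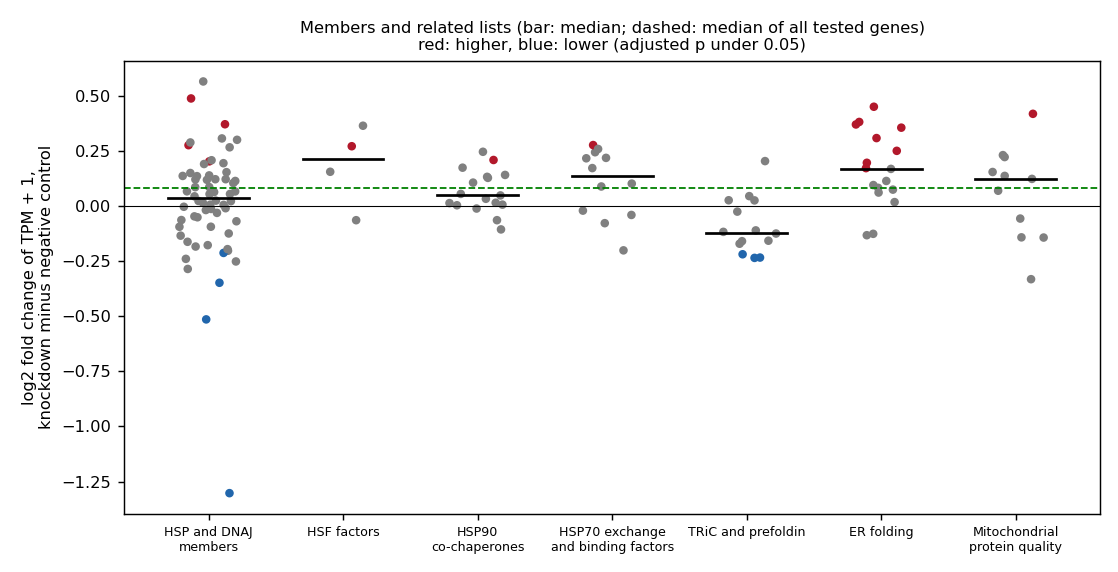
Log2 fold change of TPM + 1, knockdown minus negative control, of each tested gene in the 62 members and 6 lists of partner genes, with red for called higher, blue for called lower, a bar at each list's median and a dashed line at the median of all genes tested (0.08). The median of TRiC and prefoldin lies below 0 at −0.12, and the falls called in that list are all TRiC subunits. The median of ER folding genes lies above the dashed line at 0.17.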

How the data were processed

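The authors deposited 1 table with a TPM value per gene and library (fastp, HISAT and RSEM, per the submitters' processing notes, with no versions or roles). Those notes name a mouse build, GRCm38.p5, while 58883 of 60027 IDs are human Ensembl IDs; 1 line was empty. TPM keep no depth, so sequencing depth is unknown and the spread of 3 libraries per group is the precision; 23162 to 25910 genes per library were above 0. All 6 TPM columns were used.

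Genes with a mean of at least 1 TPM (15755) were fitted with limma 3.58.1 (R 4.3.3) on log2(TPM + 1), which understates changes of low genes, with a trended prior spread and no covariates. Two-sided p-values were adjusted over all genes tested (Benjamini-Hochberg, called under 0.05). Ratios and sums used exact permutation tests. Alternatives were a pseudocount of 0.1, no filter or a filter of 5 TPM, 3 other scalings, no trend, array weights, a replicate block and leaving out each library.

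Values are given for members called, for main chaperones, for the highest member of each role and for the 2 most significant called genes per partner list. Members and lists were chosen with earlier results of these data known. The list entries DNAJC20, AHSA2 and DNAJC23 were not found by these names. Positions and shared windows of 150 bases came from GENCODE 29, and promoters from RefSeq (GRCh38.p14). Windows were cut from the longest transcript of each member alone and sought in all annotated transcripts.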

Additional observations from a re-analysis of the deposited data

How the results depend on the processing

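HSPA8, DNAJC6 and DNAJB11 were called under all 15 alternatives, HSP90AB1 under 14, HSPD1 under 12, HSPA6 under 8, and DNAJA1 and DNAJC25 under 5 each. For 23 members, which leave out HSPA7, DNAJB14, DNAJC11 and DNAJC19, 278 of 345 alternative values kept direction and side of the threshold, 31 lost a call, 11 gained one and 25, none of them called, changed sign. Median ratio scaling gave 2 members called higher and 8 lower, quantile normalization 2 and 7, rescaling of TPM without mitochondrial DNA and ribosomal protein genes 2 and 7, and a prior spread without trend 2 and 2. For all genes, median ratio scaling gave 1012 higher and 996 lower, quantile normalization 1001 and 980, rescaling 1083 and 865, and no filter, where more genes are tested, 1136 and 339. With 1 library left out, 2 to 4 members were higher and 2 to 3 lower, and 867 to 1267 genes were higher and 246 to 366 lower, with fewer samples in the fit; the members higher were 2 without knockdown library 3 or any 1 control library, and those lower 2 without control library 1 or 2. The cause of the other shifts was not tested.

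With the replicate block 3 members were higher and 4 lower, and all genes called were 1123 and 343. Same-numbered libraries did not deviate together over all genes (correlations 0.02, −0.01 and 0.04 for numbers 1 to 3), and 3 of 6 libraries correlated best with their own number. Over the members alone the correlations were 0.154, 0.0951 and 0.423, all positive and largest for number 3. These values do not settle whether the numbers pair the samples, and the main fit did not pair them. The block cannot change a mean difference in this balanced design. With it, the exact p of the ratios was 0.75 for HSP90AA1 to HSP90AB1 and 0.25 for each of the others. With 3 pairs, 0.25 is the smallest p this test can give, so it cannot show whether blocking weakened those ratios.

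Log2 fold changes that changed sign were small. Median ratio scaling, quantile normalization and rescaling gave −0.0281, −0.0283 and −0.0131 for DNAJB6, −0.0705, −0.0561 and −0.0561 for DNAJC25-GNG10, and −0.0881, −0.0793 and −0.0735 for DNAJC7. Quantile normalization gave 0.0114 for HSPA5 and −0.00270 for HSPB1, and array weights gave 0.00496 for HSPA5 and 0.00228 for HSPA1A. With 1 library left out, values ran from −0.131 to 0.00796 for DNAJB1, −0.0380 to 0.104 for DNAJC25-GNG10, −0.0216 to 0.0289 for DNAJC7, −0.171 to 0.0862 for HSPA1A, −0.0513 to 0.0420 for HSPA5, −0.0418 to 0.0147 for HSPA9 and −0.0148 to 0.186 for HSPH1.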

Other observations

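GAK, a widely expressed relative of auxilin that also uses HSPA8 to uncoat clathrin, was looked up after the value of DNAJC6 had been seen. It stood at 83.01, 82.29 and 80.23 TPM in knockdown libraries, against 66.89, 67.99 and 67.03 TPM in negative control libraries. Every knockdown library lay above every control library, as for DNAJC6 (log2 fold change 0.28, SE 0.04, limma adjusted p = 0.00734, and 0.0356 after median ratio scaling). HSPA8, the ATPase that both recruit, was called lower under every alternative run. Of all genes tested, 11.3% were called higher, and in 26.8% every knockdown library lay above every control library. Any link among the changes of GAK, DNAJC6 and HSPA8 was not tested.

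CRYAB, a small heat shock protein whose symbol lies outside the HSPB names, was also looked up after the values were seen. It averaged 9.97 ± 0.275 TPM in knockdown and 11.1 ± 2.06 TPM in negative control libraries (SD, n = 3 each; limma adjusted p = 0.567). Of the 41 names dropped as pseudogenes or antisense, DNAJC19P5 was the 1 that reached a mean of 1 TPM, at 5.977 ± 1.601 TPM in knockdown and 5.49 ± 1.31 TPM in negative control libraries (SD, n = 3 each; limma adjusted p = 0.811).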
